A study of Arabidopsis thaliana with 10 samples.

Results

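A set of 136 probe sets was lower in rosettes of the Arabidopsis thaliana mutant vtc1 than in rosettes of wild-type Col 0, while the mutant abi4-102 stayed close to wild type. Values were log2(intensity + 1). A probe set was taken when its vtc1 mean lay at least 0.7 below the wild-type mean, its abi4-102 mean lay within 0.3 of the wild-type mean, and every vtc1 array read below every other array. Of 22746 probe sets, 420 met the first condition. Among those, abi4-102 was below wild type by more than 0.3 in 269, above it by more than 0.3 in 11, and inside the window in 140. The array condition removed none of the 140, and 4 probe sets of plastid-encoded genes were left out. Of the 136 that remained, 72 carried 1 gene each (72 distinct genes), 3 carried several genes, and 61 were unnamed in the annotation table used here.

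The mutant vtc1 is defective in GDP-mannose pyrophosphorylase, which supplies activated mannose for ascorbate synthesis as well as for cell wall polysaccharides and protein glycosylation. ABI4 is a transcription factor of the AP2 family that acts in responses to abscisic acid, sugars and signals from plastids. Ascorbate is the main soluble antioxidant of leaf cells, and a cofactor of enzymes in hormone and cell wall metabolism.

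Whole rosettes came from plants 42 days old, grown on compost under 8 h of light a day at 200 µmol m-2 s-1, 60% relative humidity, and 23 °C by day and 18 °C by night. The 3 groups differed only by genotype as far as the labels go: Col 0 had 3 arrays, abi4-102 had 3, and vtc1, given without an allele number, had 4. No treatment is named. The labels call the arrays biological replicates but do not say whether a replicate was 1 plant or a pool, so p-values measure only the spread between these samples. The transcripts of VTC1 and ABI4 could not be used to check the genotypes, since the annotation pairs no probe set with either gene alone.

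Array medians of intensity ran from 42.6 to 45.6, and arrays correlated at 0.997 to 0.999 within a genotype and at 0.985 to 0.990 between genotypes. Control probe sets differed by genotype. The spike-in controls read 8.43 to 8.73 (log2) in vtc1, 8.76 to 8.83 in abi4-102 and 8.78 to 8.88 in wild type. Probe sets for actin, GAPDH and ubiquitin that serve as controls read 10.9 to 11.0 in vtc1 against 10.5 to 10.6 in wild type. The actin difference between 3′ and 5′ probe sets, a sign of RNA integrity, was 1.5 to 1.7 in vtc1, 1.4 to 1.6 in abi4-102 and 1.7 to 2.1 in wild type. The part of these differences in the decreases described here was not tested. Of the mesophyll marker list, 1 of 6 genes was measured, which here means that the annotation pairs it with a probe set of its own. It was RCA (Rubisco activase), at 7416 to 7522 in wild type, 5709 to 5923 in abi4-102 and 6480 to 6842 in vtc1. In whole rosettes, fewer cells of a type and less RNA per cell cannot be told apart.

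The members' median change in vtc1 was -0.81 on the log2 scale, which left a median of 57.1% of the wild-type level. The changes ran from -3.09 to -0.70. A decrease of 1 or more was found in 31 members and one of 1.5 or more in 9. All 136 were called lower in vtc1 than in wild type at an adjusted p under 0.05 (limma), and 18.5% of all probe sets were called lower in that comparison. Every vtc1 array was below every other array in 11.2% of all probe sets, and abi4-102 lay within 0.3 of wild type in 76.9%. Against abi4-102, all 136 were called lower in vtc1, where 21.2% of all probe sets were. These contrasts chose the members, so the counts describe the set and test nothing.

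**Figure D1:**
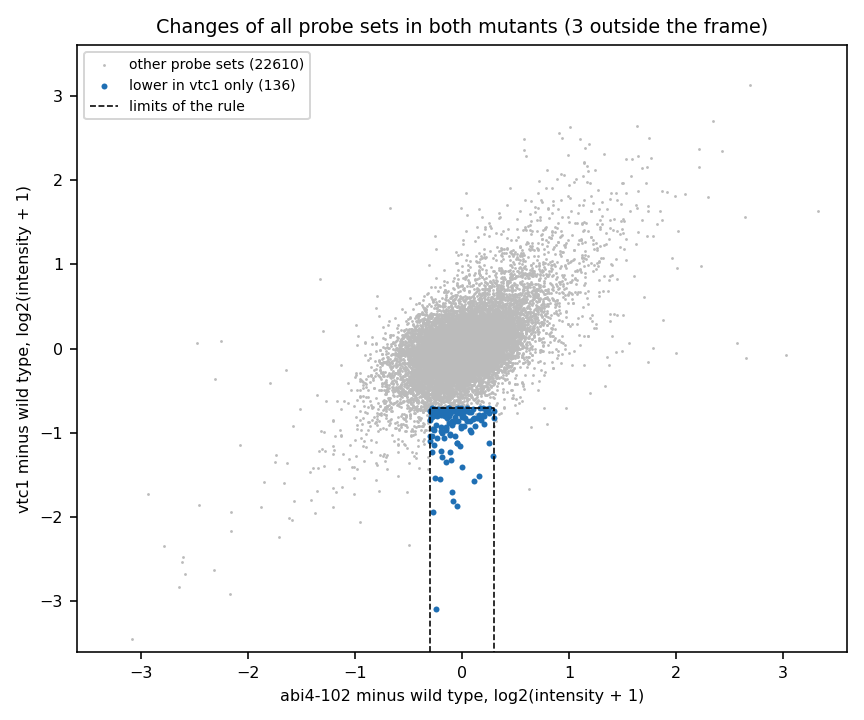
Each point is 1 probe set, with the change in abi4-102 against wild type on the x axis and the change in vtc1 against wild type on the y axis, both on the log2(intensity + 1) scale. The 136 members (blue) fill the strip between -0.3 and 0.3 on the x axis below -0.7 on the y axis, most of them close to its upper edge, and 3 of the other probe sets lie outside the frame.

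The 4 vtc1 arrays lay close together. Relative to the wild-type mean, the members' median was -0.81, -0.83, -0.84 and -0.81 on the 4 vtc1 arrays, while the median over all probe sets was between -0.04 and 0.00 on the same arrays. On the abi4-102 arrays the members' median was -0.07, -0.08 and -0.16. No single vtc1 array held the lowest value throughout: replicates 1 to 4 were lowest for 27, 31, 49 and 29 members. The empty gap between the highest vtc1 array and the lowest of the other arrays had a median of 0.55 and ran from 0.16 to 2.66. The median SD between replicates was 0.075 for members in vtc1, 0.080 in abi4-102 and 0.076 in wild type, against 0.078, 0.088 and 0.080 over all probe sets.

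The window around wild type did not make abi4-102 equal to it. The abi4-102 mean was below wild type for 99 members and above it for 37, with a median of -0.11. Every abi4-102 array was below every wild-type array for 47 members and above for 14, and the arrays overlapped for 75. Over all probe sets, every abi4-102 array was below every wild-type array in 20.6% and above in 22.9%. In abi4-102 against wild type 37 members were called lower and 11 higher, where 16% of all probe sets were called lower and 18.8% higher. The window itself chose for small changes, so nothing is read from these shares.

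**Figure D2:**
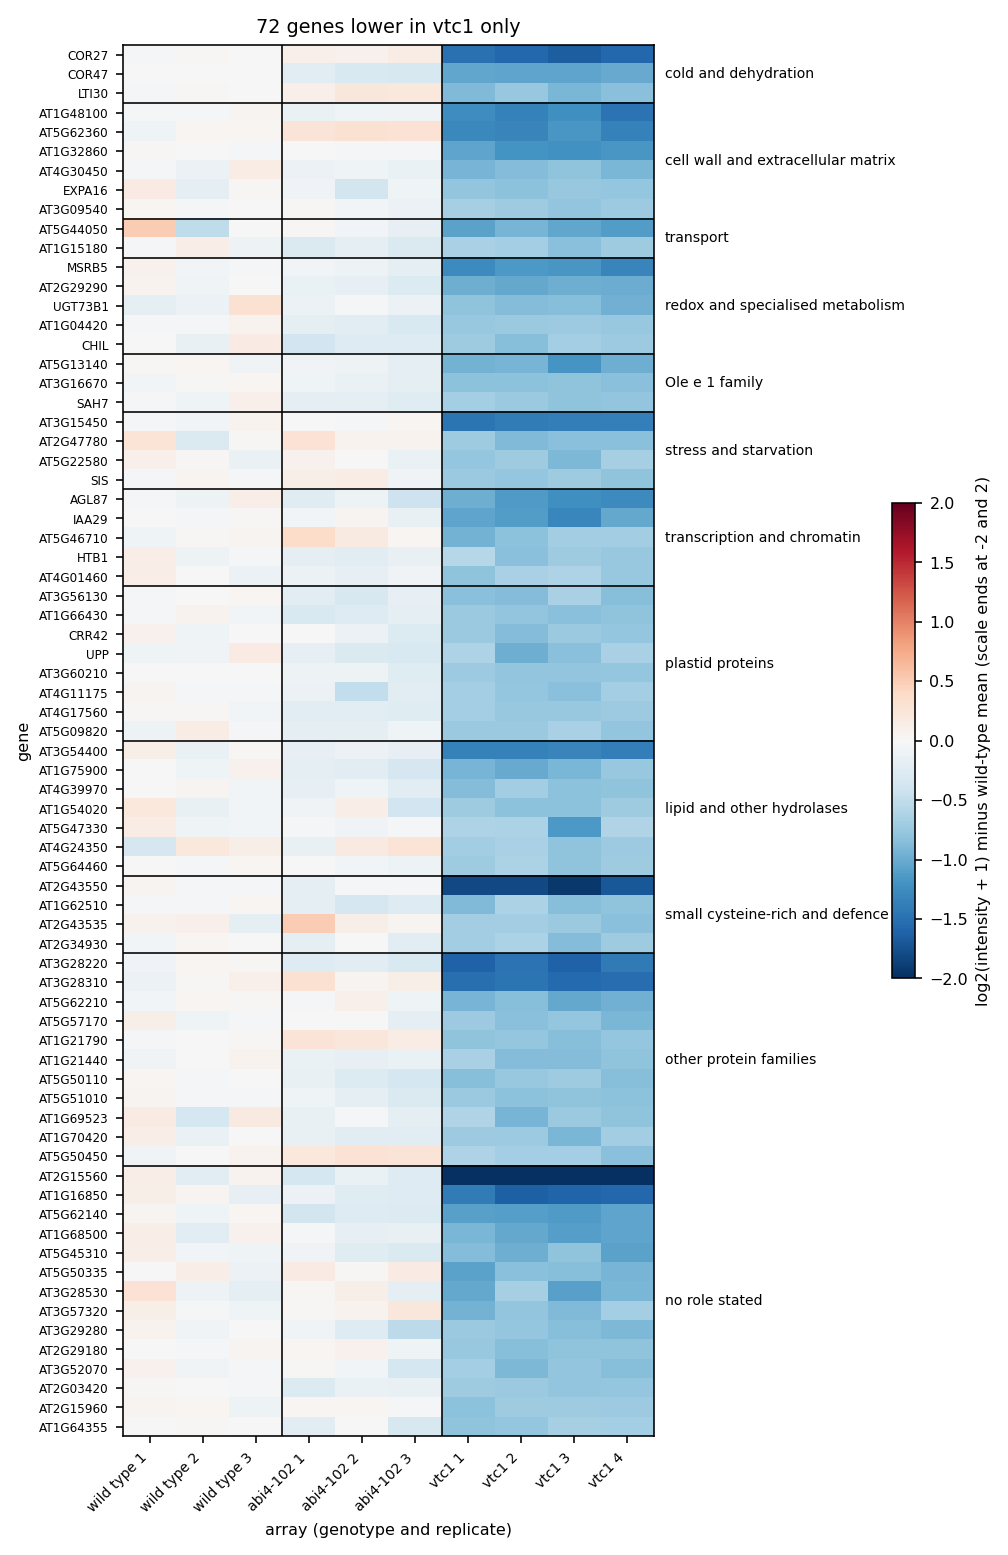
Rows are the 72 genes, grouped by protein family or role and within a group by the size of the decrease, and columns are the 10 arrays. Colour is log2(intensity + 1) minus the wild-type mean, with the scale ending at -2 and 2. The vtc1 columns are blue in every row, and AT2G15560 at -3.09 lies past the end of the scale.

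The gene with the largest decrease, AT2G15560, is given only by its locus code and has no role stated here. Its intensity was 245, 193 and 235 in wild type, 175, 204 and 186 in abi4-102, and 26.9, 24.2, 25.2 and 25.4 in vtc1. All 4 vtc1 arrays were near 25, and the abi4-102 and wild-type arrays overlapped. Next came AT2G43550, a small cysteine-rich protein of the defensin-like (scorpion toxin-like) family, with 1198, 1136 and 1136 in wild type, 1016, 1129 and 1132 in abi4-102, and 332, 331, 304 and 358 in vtc1. It was 3.49-fold lower in vtc1, and the abi4-102 arrays ended just under the wild-type range.

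**Figure D3:**
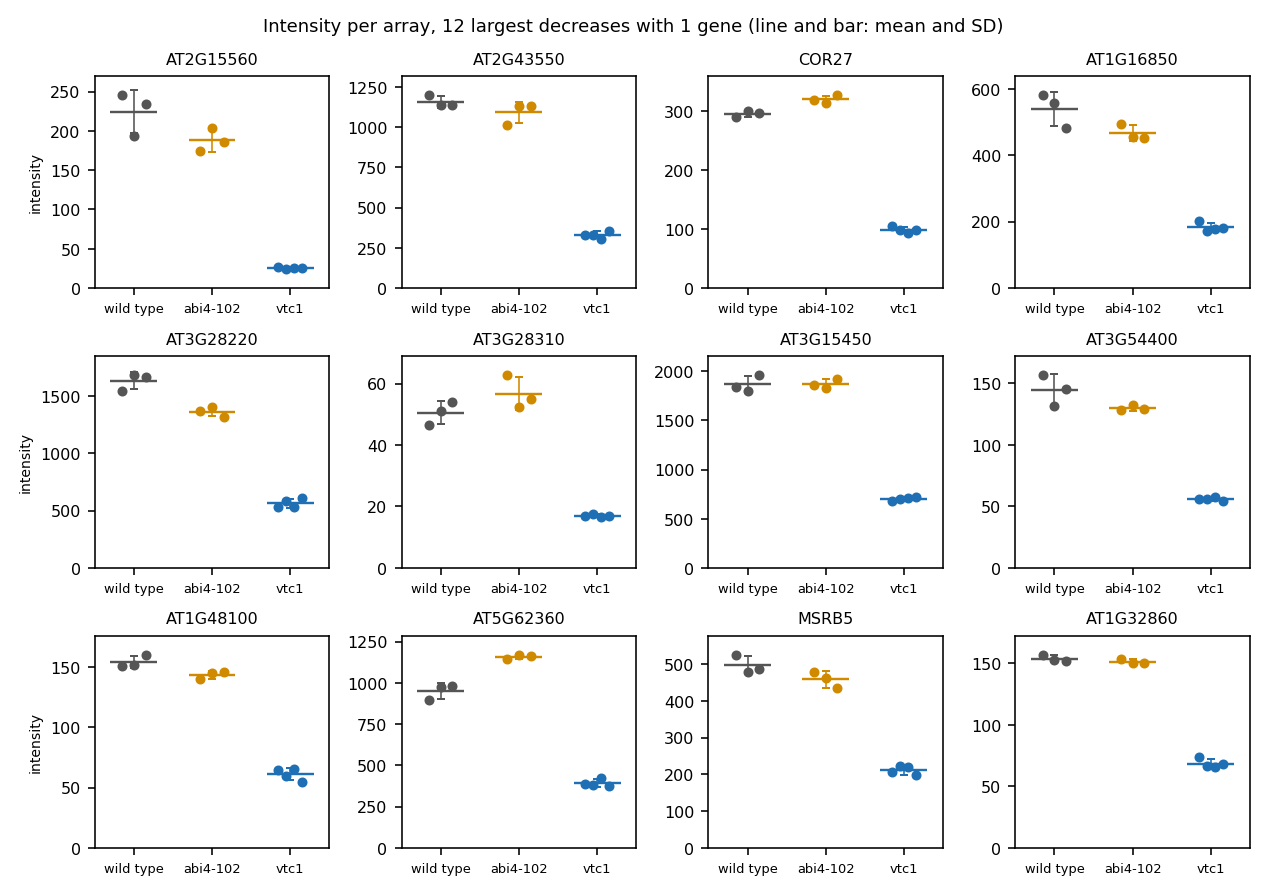
Intensity on a linear axis from 0 for the 12 genes with the largest decreases, with 1 point per array, a line at the mean and a bar for the SD. In each panel the 4 vtc1 points lie below all wild-type and abi4-102 points, as the choice of members fixed, and for COR27 and AT5G62360 all abi4-102 points lie above the wild-type points.

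AT1G16850, with no role stated here, read 581, 557 and 482 in wild type, 494, 454 and 452 in abi4-102, and 203, 173, 177 and 181 in vtc1. It was 2.93-fold lower in vtc1, and wild type and abi4-102 overlapped. AT3G28220, a protein with a TRAF-like (MATH) domain, read 1545, 1681 and 1664 in wild type, 1365, 1406 and 1320 in abi4-102, and 529, 582, 531 and 612 in vtc1. Its abi4-102 arrays lay between the other groups and touched neither, and it was 2.89-fold lower in vtc1 than in wild type. AT3G28310, of a plant family known only as DUF677, read 46.5, 51.1 and 54.0 in wild type, 62.8, 52.5 and 54.9 in abi4-102, and 17.0, 17.6, 16.6 and 16.9 in vtc1. The vtc1 arrays were 2.85-fold lower and close to background, with 1 of the 4 at the level of the Bacillus control probe sets.

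AT3G15450 belongs to a family named for aluminium-induced proteins, and its transcript is known to rise when sugars run short. Its values were 1838, 1797 and 1960 in wild type, 1864, 1824 and 1924 in abi4-102, and 678, 704, 715 and 718 in vtc1. The decrease in vtc1 was 2.65-fold, with abi4-102 inside the wild-type spread. AT3G54400, a secreted aspartyl protease, gave 157, 131 and 146 in wild type, 128, 133 and 129 in abi4-102, and 55.6, 56.0, 57.4 and 54.6 in vtc1. It was 2.55-fold lower in vtc1, and abi4-102 overlapped the lower end of wild type. MSRB5, a methionine sulfoxide reductase that repairs oxidised methionine in proteins, gave 525, 479 and 487 in wild type, 479, 463 and 434 in abi4-102, and 205, 223, 220.2 and 197 in vtc1. The decrease was 2.35-fold, and wild type and abi4-102 overlapped by a small margin.

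Members named for cold and dehydration were COR27, COR47 and LTI30, the 3 of 7 measured genes of a cold and dehydration list (27 listed) that met the rule. COR27 is a cold-induced, light-regulated protein that feeds into the circadian clock. It read 290.0, 300.1 and 296 in wild type, 319, 314 and 327 in abi4-102, and 105, 98.8, 93.5 and 98.6 in vtc1. It was 2.97-fold lower in vtc1, while every abi4-102 array was above every wild-type array. COR47 and LTI30 are dehydrins, hydrophilic proteins that protect membranes and proteins when cells lose water. COR47 read 3607, 3574 and 3615 in wild type, 3111, 2919 and 2883 in abi4-102, and 1755, 1741, 1726 and 1780 in vtc1. The abi4-102 arrays were below wild type without overlap, and vtc1 was 2.06-fold lower than wild type. LTI30 read 2031, 2096 and 2058 in wild type, 2202, 2411 and 2378 in abi4-102, and 1120, 1222, 1092 and 1154 in vtc1. Here abi4-102 was above wild type without overlap, and vtc1 was 1.80-fold lower.

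The other 4 measured genes of the cold list fell outside the rule. AT4G33980, a locus related to COR27, was lower in both mutants, by 1.70 in vtc1 (limma adjusted p = 4.5e-10) and by 0.51 in abi4-102 (0.00067) on the log2 scale. COR15A and COR15B encode plastid proteins that protect membranes during freezing. COR15A was 4833 ± 213 (SD, n = 4) in vtc1, 6910 ± 200 (SD, n = 3) in wild type and 7651 ± 504 (SD, n = 3) in abi4-102. That was -0.52 on the log2 scale in vtc1 against wild type (limma adjusted p = 6.6e-06) and -0.66 against abi4-102 (7.8e-07), with 0.15 in abi4-102 against wild type (0.11). COR15B changed by -0.54 in vtc1 against wild type (limma adjusted p = 1.4e-05) and by -0.03 in abi4-102 (0.84). The pair therefore had the pattern of the members at a size below the threshold of 0.7. LEA4-5, a late embryogenesis abundant protein, was at -0.22 in vtc1 (limma adjusted p = 0.071) and fell by 0.44 in abi4-102 (0.0018).

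**Figure D4:**
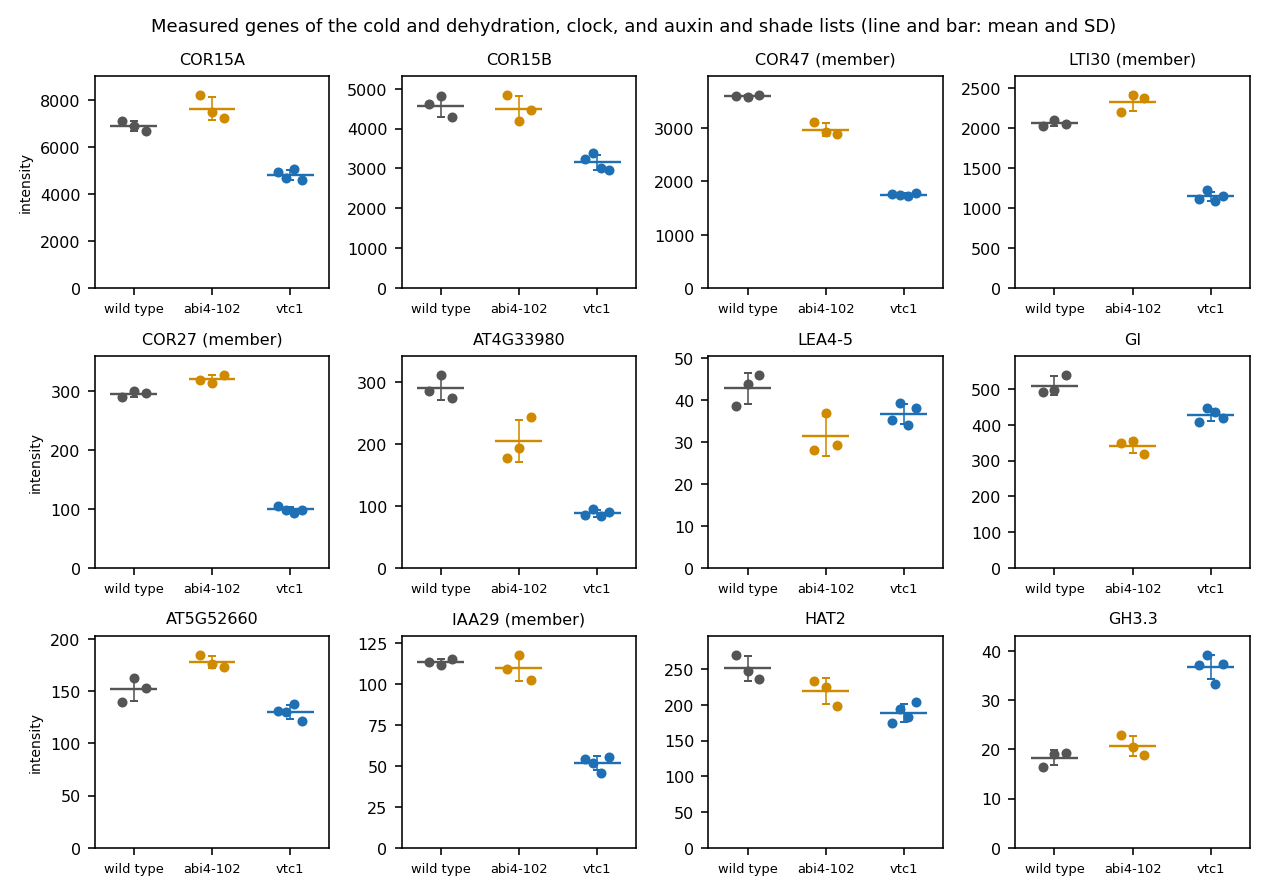
Intensity per array, on linear axes from 0, for the measured genes of the cold and dehydration, circadian clock, and auxin and shade lists, with a line at the mean and a bar for the SD. COR27, COR47, LTI30 and IAA29 are members. COR15A and COR15B also have vtc1 points below the other groups, by less than the threshold of 0.7, and GH3.3 has vtc1 points above them.

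Cell wall and extracellular proteins made up 6 members, with changes from -1.33 to -0.72. AT1G48100 is of the polygalacturonase family, which cuts the pectin backbone, and read 151, 152 and 160.1 in wild type, 140.0, 145 and 146 in abi4-102, and 64.7, 60.0, 65.1 and 54.7 in vtc1. It was 2.51-fold lower in vtc1, and the abi4-102 arrays lay just under wild type. AT5G62360, of the pectin methylesterase and invertase inhibitor family, read 898, 973 and 981 in wild type, 1142, 1169 and 1165 in abi4-102, and 389, 378, 424 and 372 in vtc1. It was 2.43-fold lower in vtc1, and every abi4-102 array was above wild type. AT1G32860, of the beta-1,3-glucanase family that acts on callose, read 157, 152 and 152 in wild type, 154, 150.0 and 150.4 in abi4-102, and 73.4, 66.8, 65.5 and 68.3 in vtc1. It was 2.23-fold lower, with overlapping wild-type and abi4-102 arrays.

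AT4G30450 is a glycine-rich protein and read 214, 201 and 243 in wild type, 200.5, 205 and 199 in abi4-102, and 114, 119, 125 and 115 in vtc1. EXPA16 is an expansin, a wall-loosening protein, and read 66.5, 51.5 and 59.9 in wild type, 56.0, 45.3 and 55.3 in abi4-102, and 33.6, 33.0, 34.6 and 34.1 in vtc1. AT3G09540 is of the pectate lyase family and read 368, 353 and 355 in wild type, 363, 344 and 332 in abi4-102, and 226, 219, 208 and 218 in vtc1. In these 3 genes abi4-102 overlapped wild type, and the decreases in vtc1 were 1.84-fold, 1.72-fold and 1.65-fold. Of the separate list of expansins and xyloglucan enzymes, 6 of 20 genes were measured. The limma fit called none of the 6 in vtc1 and called 3 higher in abi4-102 (EXPA4, XTH16 and XTH19), where 18.8% of all probe sets were. At the Bacillus control level on all arrays were 3 of the 6, XTH16, XTH18 and XTH19. The calls of XTH16 and XTH19 thus rest on background values. The list's median change in vtc1 was 0.09, against -0.03 over all probe sets.

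A further 3 members belong to the Ole e 1 family of secreted, pollen-allergen-like proteins. AT5G13140 read 216, 218 and 202 in wild type, 202, 198 and 186 in abi4-102, and 109, 111, 93.0 and 107 in vtc1. AT3G16670 read 603, 638 and 646 in wild type, 595, 573 and 546 in abi4-102, and 357, 354, 359 and 351 in vtc1. SAH7 read 803, 775 and 882 in wild type, 724, 714 and 689 in abi4-102, and 510.0, 487, 467 and 475 in vtc1. All 3 had every abi4-102 array below every wild-type array, in AT5G13140 by less than the rounding of these values. This held for 47 of all 136 members and for 20.6% of all probe sets. The window chose on this contrast, so nothing is read from the count. The decreases in vtc1 were 2.01-fold, 1.77-fold and 1.69-fold. AT3G16660, the family member beside AT3G16670 on chromosome 3, was at -0.20 in vtc1 (limma adjusted p = 0.058).

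Members that act in the nucleus were 4 transcription regulators and a histone. IAA29 is an Aux/IAA protein, a repressor of auxin-responsive transcription whose own transcript is raised by auxin and shade. It read 113, 111 and 115 in wild type, 109, 118 and 102 in abi4-102, and 54.0, 51.8, 45.3 and 55.3 in vtc1. It was 2.18-fold lower in vtc1, and abi4-102 overlapped wild type. AGL87, a MADS-box protein, read 133, 128 and 150.1 in wild type, 115, 127 and 102 in abi4-102, and 69.0, 61.9, 57.8 and 56.2 in vtc1. Its abi4-102 arrays lay between the other groups, and vtc1 was 2.22-fold lower than wild type.

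AT5G46710, a PLATZ-type zinc-binding protein, read 152, 165 and 169 in wild type, 209.6, 184 and 167 in abi4-102, and 83.6, 91.2, 99.7 and 99.8 in vtc1. AT4G01460, a basic helix-loop-helix protein, read 64.7, 58.4 and 54.3 in wild type, 54.1, 52.6 and 56.2 in abi4-102, and 33.2, 37.3, 38.3 and 34.6 in vtc1. HTB1, a histone H2B, read 211, 179 and 187 in wild type, 167, 166 and 174 in abi4-102, and 128, 107, 117 and 113 in vtc1. In the first of these abi4-102 spread upwards from the wild-type range, in AT4G01460 it overlapped wild type at its lower end, and in HTB1 it was below wild type without overlap. The decreases in vtc1 were 1.73-fold, 1.63-fold and 1.65-fold.

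Of the auxin and shade list, 3 of 20 genes were measured, and IAA29 was the only member among them. HAT2, a homeodomain leucine zipper protein induced by auxin, was at -0.41 in vtc1 (limma adjusted p = 0.00042), and that call was lost when arrays were scaled on the spike-in controls (-0.17, adjusted p = 0.15). GH3.3, an enzyme that conjugates auxin to amino acids and is itself induced by auxin, rose by 0.97 (limma adjusted p = 5.7e-08). These list genes did not move in 1 direction. Of the clock list, 2 of 28 genes were measured. GI, an evening-phased clock component, fell by 0.25 in vtc1 (limma adjusted p = 0.005) and by 0.58 in abi4-102 (6e-06). AT5G52660, a MYB-related protein, was at -0.22 in vtc1 (0.017) and at 0.23 in abi4-102 (0.018). Under spike-in scaling the vtc1 values became -0.01 for GI (adjusted p = 0.91) and 0.017 for AT5G52660 (0.89).

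Plastid proteins encoded in the nucleus formed the largest group with a stated function, with 8 members at -0.80 to -0.73, close to the threshold of 0.7. The groups were formed with the members known, and plastid proteins among all measured genes were not counted. Nothing is therefore read from the size of the group. The vtc1 means of the 8 were 57.3% to 60.3% of wild type. For all 8 the abi4-102 mean was also below wild type, by 0.13 to 0.28 on the log2 scale, and in 6 the abi4-102 arrays lay below all wild-type arrays, as they did in 47 of all 136 members and in 20.6% of all probe sets. The window chose on this contrast, so nothing is read from the count. None of the 8 met the rule under spike-in scaling, and 5 did after quantile normalization.

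Protein synthesis and folding were represented by 3 of them. AT4G17560 is a protein of the large plastid ribosome subunit (L19 family) and read 563, 558 and 533 in wild type, 469.8, 469 and 467 in abi4-102, and 343, 325, 324 and 334 in vtc1. AT4G11175 is a translation initiation factor of the bacterial IF-1 type and read 393, 369 and 369 in wild type, 349, 267 and 324 in abi4-102, and 235, 219, 209.7 and 234 in vtc1. AT3G60210 is a GroES-like co-chaperonin and read 393, 396 and 389 in wild type, 364, 365 and 333 in abi4-102, and 236, 228, 227 and 229 in vtc1. The decreases in vtc1 were 1.66-fold, 1.68-fold and 1.70-fold, and abi4-102 lay between the other groups without overlap in each. AT4G11175 had the narrowest gap between vtc1 and the other arrays among the one-gene members, 0.18 on the log2 scale, because 1 abi4-102 array was low.

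CRR42 is needed to assemble the chloroplast NDH complex, which carries electrons around photosystem I, and read 351, 313 and 334 in wild type, 330.3, 307 and 275 in abi4-102, and 199, 182, 197 and 194 in vtc1. AT5G09820 is of the fibrillin (plastid lipid-associated) family and read 137, 162 and 142 in wild type, 129, 128 and 138 in abi4-102, and 87.5, 87.8, 93.0 and 84.9 in vtc1. In both, wild type and abi4-102 overlapped, and vtc1 was 1.72-fold and 1.66-fold lower. AT3G56130 carries a biotin/lipoyl attachment domain and read 132, 136 and 139 in wild type, 116, 109 and 120.3 in abi4-102, and 75.1, 74.0, 85.7 and 74.5 in vtc1. AT1G66430 is a pfkB-type carbohydrate kinase related to fructokinase and read 244, 260.5 and 239 in wild type, 199, 207 and 217 in abi4-102, and 148, 143, 138 and 141 in vtc1. UPP, the plastid uracil phosphoribosyltransferase of pyrimidine salvage, read 127, 128 and 150.4 in wild type, 119.7, 109.5 and 109 in abi4-102, and 87.4, 67.7, 74.7 and 85.4 in vtc1. These 3 had abi4-102 between the other groups without overlap, with decreases in vtc1 of 1.75-fold, 1.73-fold and 1.71-fold.

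The lists for photosynthesis and for pigments held no member. Of 5 measured photosynthesis genes, limma called 3 lower in vtc1: SBPASE at -0.51 (adjusted p = 1.1e-05), PRK at -0.22 (0.018) and RCA at -0.16 (0.028), all of the Calvin cycle or its activation. The same 3 were called lower in abi4-102, at -0.28 (limma adjusted p = 0.0054), -0.67 (2.4e-06) and -0.36 (0.00015). Of all probe sets, 18.5% were called lower in vtc1 and 16% in abi4-102. Under spike-in scaling SBPASE was at -0.28 in vtc1 (0.017), while PRK and RCA turned to 0.017 and 0.073 there. Of 3 measured chlorophyll and carotenoid genes, 2 were called lower, LYC (lycopene cyclase) at -0.35 (limma adjusted p = 0.0017) and CHLM (a methyltransferase of chlorophyll synthesis) at -0.30 (0.0024). Both calls were lost under spike-in scaling, at -0.11 and -0.07.

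Members in redox and specialised metabolism, beside MSRB5, were AT2G29290, of the tropinone reductase-like family, AT1G04420, of the aldo/keto reductases, UGT73B1, a glucosyltransferase of flavonoids, and CHIL, a chalcone isomerase-like protein that promotes flavonol synthesis. The 5 changes ran from -1.23 to -0.74, and all 5 abi4-102 means were below wild type, as were those of 99 of all 136 members. AT2G29290 read 439, 396 and 422 in wild type, 383, 374 and 347 in abi4-102, and 213, 206, 212 and 210.1 in vtc1. AT1G04420 read 531, 529.7 and 573 in wild type, 473, 466 and 438 in abi4-102, and 321, 326, 329.5 and 320.3 in vtc1. In both, abi4-102 was below wild type without overlap, and vtc1 was 1.98-fold and 1.68-fold lower. UGT73B1 read 20.4, 21.2 and 28.8 in wild type, 21.3, 22.9 and 21.3 in abi4-102, and 12.9, 12.3, 12.4 and 11.4 in vtc1, with every vtc1 array at the Bacillus control level. Its change is therefore a bound, at least 1.43-fold lower in vtc1 than in wild type. CHIL read 68.2, 61.8 and 77.1 in wild type, 52.7, 57.5 and 57.5 in abi4-102, and 41.8, 37.7, 42.4 and 41.1 in vtc1. It was 1.67-fold lower in vtc1, and abi4-102 lay below wild type without overlap, close to the edge of the window at -0.29. It met the rule with only 5 of the 10 arrays left out in turn.

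Small cysteine-rich and defence-related members were AT2G43550, AT2G43535, AT1G62510 and AT2G34930. AT2G43535 is a second defensin-like protein and read 172, 174 and 143 in wild type, 230.0, 176 and 168 in abi4-102, and 100.1, 100.1, 96.5 and 90.9 in vtc1. The abi4-102 arrays spread widely and overlapped wild type, and vtc1 was 1.67-fold lower than wild type. AT1G62510 is of the lipid transfer and 2S albumin family and read 93.0, 92.4 and 96.8 in wild type, 81.6, 74.5 and 78.2 in abi4-102, and 50.8, 60.5, 51.8 and 53.7 in vtc1. AT2G34930 is a leucine-rich repeat protein and read 78.3, 83.7 and 81.5 in wild type, 71.7, 82.0 and 69.2 in abi4-102, and 49.5, 51.7, 43.9 and 48.9 in vtc1. The decreases in vtc1 were 1.73-fold and 1.66-fold, with abi4-102 below wild type without overlap in AT1G62510 and overlapping it in AT2G34930.

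Lipases, a protease and other enzymes outside the cell wall group made up 7 members, with changes from -1.35 to -0.71. Beside AT3G54400 they were the GDSL-type lipases AT1G75900 and AT1G54020, AT5G47330 (palmitoyl protein thioesterase family), AT4G39970 (haloacid dehalogenase-like), AT5G64460 (phosphoglycerate mutase-like) and AT4G24350 (nucleoside phosphorylase family). AT1G75900 read 514, 484 and 548 in wild type, 451, 447 and 406 in abi4-102, and 269.7, 254, 273 and 304 in vtc1. It was 1.87-fold lower in vtc1, and abi4-102 was below wild type without overlap. AT1G54020 read 27.9, 21.6 and 23.1 in wild type, 22.8, 26.6 and 18.2 in abi4-102, and 14.3, 13.2, 13.1 and 14.3 in vtc1. It lay at the Bacillus control level on all vtc1 arrays and was at least 1.48-fold lower. AT4G39970 read 731, 765 and 711 in wild type, 656, 691 and 625 in abi4-102, and 403, 453, 418 and 420.3 in vtc1. It was 1.74-fold lower, with abi4-102 below wild type without overlap.

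The last 3 of these enzymes had overlapping wild-type and abi4-102 arrays. AT5G47330 read 68.4, 58.2 and 59.3 in wild type, 60.6, 58.6 and 60.5 in abi4-102, and 40.0, 39.6, 27.3 and 40.3 in vtc1. AT4G24350 read 81.7, 119.9 and 111 in wild type, 93.2, 116 and 124 in abi4-102, and 63.0, 65.0, 58.3 and 61.7 in vtc1. AT5G64460 read 465, 457 and 478 in wild type, 464, 447 and 433 in abi4-102, and 286, 299, 268 and 286 in vtc1. The decreases in vtc1 were 1.68-fold, 1.65-fold and 1.64-fold, and 1 vtc1 array of AT5G47330 was lower than its other arrays. Transport was represented by AT5G44050 and AT1G15180, both MATE-type efflux carriers, at -1.04 and -0.72. AT5G44050 was 38.5 ± 13.7 (SD, n = 3) in wild type, so its wild-type spread was wide. Its vtc1 arrays, at 16.6 to 18.9, lay close to the brightest Bacillus control, which read 15.2 to 16.7 on those arrays.

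Stress and starvation members, beside AT3G15450, were AT5G22580 (stress-responsive A/B barrel domain), SIS (a salt-induced serine-rich protein) and AT2G47780 (rubber elongation factor family, whose members coat lipid droplets). All 4 had overlapping wild-type and abi4-102 arrays, as had 75 of all 136 members, with abi4-102 changes of -0.02 to 0.14. SIS read 343, 364 and 345 in wild type, 378, 388 and 336 in abi4-102, and 209, 204, 213 and 201 in vtc1. AT5G22580 read 1129, 1071 and 962 in wild type, 1113, 1056 and 954 in abi4-102, and 614, 644, 562 and 665 in vtc1. AT2G47780 read 37.7, 25.1 and 31.4 in wild type, 38.0, 32.5 and 32.7 in abi4-102, and 18.6, 16.4, 16.9 and 16.8 in vtc1. The decreases in vtc1 were 1.69-fold, 1.70-fold and 1.76-fold. For AT2G47780 the vtc1 arrays lay close to the Bacillus control level. Of the list of sugar-repressed genes, 2 of 13 were measured, and both were called lower in vtc1. MCCA, of leucine breakdown, fell by 0.64 in vtc1 (limma adjusted p = 6e-06) and by 0.62 in abi4-102. AKINBETA1, a subunit of the energy-sensing SnRK1 kinase, was at -0.37 (0.00062) and lost its call under spike-in scaling (-0.13, adjusted p = 0.27).

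A further 11 members had a known family without a common role, with changes from -1.53 to -0.71. They were AT3G28220 and AT3G28310 (above), AT5G62210 (embryo-specific protein 3 family), AT1G21790 (TLC domain), AT1G21440 (phosphoenolpyruvate mutase and isocitrate lyase family), AT5G57170 (tautomerase of the macrophage migration inhibitory factor family), AT5G51010 (rubredoxin-like), the methyltransferase-like AT5G50110 and AT1G69523, AT5G50450 (MYND-type zinc finger) and AT1G70420 (DUF1645). AT1G21790 was 352 ± 5.59 (SD, n = 3) in wild type, 408 ± 15.4 (SD, n = 3) in abi4-102 and 202 ± 5.12 (SD, n = 4) in vtc1, with abi4-102 above wild type without overlap. AT5G50450 also had abi4-102 above wild type, at 387 ± 12.3 (SD, n = 3) against 325 ± 16.6 (SD, n = 3), and 199 ± 12.8 (SD, n = 4) in vtc1.

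No role is stated here for 14 members. Beside AT2G15560 and AT1G16850 these were AT5G62140, AT1G68500, AT5G45310, AT5G50335, AT3G28530, AT3G57320, AT3G29280, AT2G29180, AT3G52070, AT2G03420, AT2G15960 and AT1G64355. Without the first 2, AT5G62140 had the largest decrease, at 83.5 ± 1.8 (SD, n = 4) in vtc1 against 179.6 ± 9.39 (SD, n = 3) in wild type. AT2G15960 was 2184 ± 126 (SD, n = 3) in wild type, 2208 ± 57.7 (SD, n = 3) in abi4-102 and 1306 ± 46.6 (SD, n = 4) in vtc1. AT3G28530 was measured by a probe set of a type that can also bind related sequences, and its level is uncertain for that reason.

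The 61 unnamed members included 11 that were lower by 1 or more, beside 19 of the one-gene members. The largest, by the identifier of the probe set, were 250662_at, at 35.3 ± 1.9 (SD, n = 4) in vtc1 against 139 ± 9.43 (SD, n = 3) in wild type, 249732_at, at 17.7 ± 0.597 against 67.2 ± 3.93, and 263981_at, at 21.7 ± 1.42 against 73.0 ± 4.2. The vtc1 level of 249732_at lay close to the Bacillus control level. From the 3 members with several genes no gene is named.

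The thresholds cut through a continuous range of values. Just inside the threshold of 0.7 were AT5G50450 and AT4G01460, both at -0.71, and just outside were AT1G32090 and AT5G45840, both at -0.69. At the window of 0.3, CHIL (-0.29) and AT5G62140 (-0.30) were inside, while AT4G18280 (0.30, with -0.92 in vtc1) and UGT84A3 (-0.30, with -0.70 in vtc1) were outside in the third decimal place. After AT4G11175, the narrowest gap between vtc1 and the other arrays among the one-gene members was that of AT3G29280, at 0.21.

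The 72 genes lay on all 5 chromosomes, with 18, 9, 15, 10 and 20 genes on chromosomes 1 to 5. That was 25.0%, 12.5%, 20.8%, 13.9% and 27.8% of the members, against 25.8%, 16.4%, 20.6%, 14.6% and 22.6% of the measured genes. Only the defensin-like AT2G43535 and AT2G43550 lay within 5 places of each other in gene order, with AT2G43540 between them. AT2G43540 was at -0.07 in vtc1. AT2G43530, a defensin-like relative on the other side of AT2G43535, was at -0.37 in vtc1 (limma adjusted p = 0.00085) and at 0.40 in abi4-102.

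Measured genes directly beside a member, and not members themselves, numbered 64. In vtc1 18 of them (28.1%) were called lower and 6 (9.38%) higher, where 18.5% and 18.1% of all probe sets were, and their median change was -0.07. The counts and changes of adjacent genes are given as deposited only. Spike-in scaling moved the median of all probe sets in vtc1 against wild type from -0.03 to 0.21, so nothing is read from these counts. Adjacent relatives of members varied. AT3G28320, beside AT3G28310 and of the same family, was at -2.68 in vtc1 and at -2.60 in abi4-102, so that it was low in both mutants while AT3G28310 was low in vtc1. MSRB6, beside MSRB5, was at -0.15 in vtc1 (limma adjusted p = 0.18) and rose by 0.53 in abi4-102 (0.00018). AT5G62350, beside AT5G62360 and of the same inhibitor family, fell by 0.37 in vtc1 (limma adjusted p = 0.0002). AT4G30460, a glycine-rich protein beside AT4G30450, fell by 0.55 (2.6e-05), and AT2G29300, a tropinone reductase-like protein beside AT2G29290, fell by 0.45 (0.00047). The GDSL lipase AT1G75890 beside AT1G75900 was at 0.05 (limma adjusted p = 0.60), and the efflux carrier AT1G15170 beside AT1G15180 was at -0.12 (0.25).

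Markers of single cell types gave few values beside these decreases. The guard cell list had 2 of 6 genes measured, with summed intensity of 212 to 225 in wild type, 287 to 338 in abi4-102 and 167 to 181 in vtc1. The sum followed AT1G22690, at -0.40 in vtc1 (limma adjusted p = 0.00023) and 0.66 in abi4-102 (5e-06), while FMA was at -0.14 (0.072) and -0.08 (0.35). The phloem list had 1 of 5 measured, AT5G18600, at 1048 to 1088 in wild type, 1386 to 1515 in abi4-102 and 885 to 969 in vtc1. As deposited, AT1G22690 and AT5G18600 were thus lower in vtc1 and higher in abi4-102 than in wild type. Under spike-in scaling neither was called in vtc1, at -0.17 for AT1G22690 (adjusted p = 0.15) and 0.022 for AT5G18600 (0.86). The epidermis and trichome list had 1 of 8 measured, TRY, at 25.0 to 28.1 in wild type, 22.5 to 26.1 in abi4-102 and 27.6 to 33.1 in vtc1. The root list had 2 of 5 measured, summing to 33.2 to 38.0 in wild type, 25.5 to 31.1 in abi4-102 and 28.8 to 33.5 in vtc1, of which PYK10 was at the Bacillus control level. No xylem, flower or seed marker was measured. The part of cell type in the members' decreases was not tested.

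Ascorbate synthesis genes, of the pathway in which vtc1 is defective, held no member among 5 measured of 8. VTC4 was at -0.55 in vtc1 (limma adjusted p = 1.9e-05), AT4G33670, the L-galactose dehydrogenase locus, was at -0.40 (9.2e-05) and PMM (phosphomannomutase) rose by 0.58 (7.8e-06). VTC4 and PMM changed in the same direction in abi4-102, at -0.52 (limma adjusted p = 8.5e-05) and 0.43 (0.00034). The AT4G33670 value had a pattern like the members, with 0.00 in abi4-102, and it lost its call under spike-in scaling (-0.17, adjusted p = 0.15). Over all 18 lists, 39 of 211 distinct genes were measured and 4 were members. Of the other 35 genes, limma called 18 lower and 2 higher in vtc1, where 18.5% and 18.1% of all probe sets were. Under spike-in scaling the balance turned, with 6 called lower and 12 higher.

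**Figure D5:**
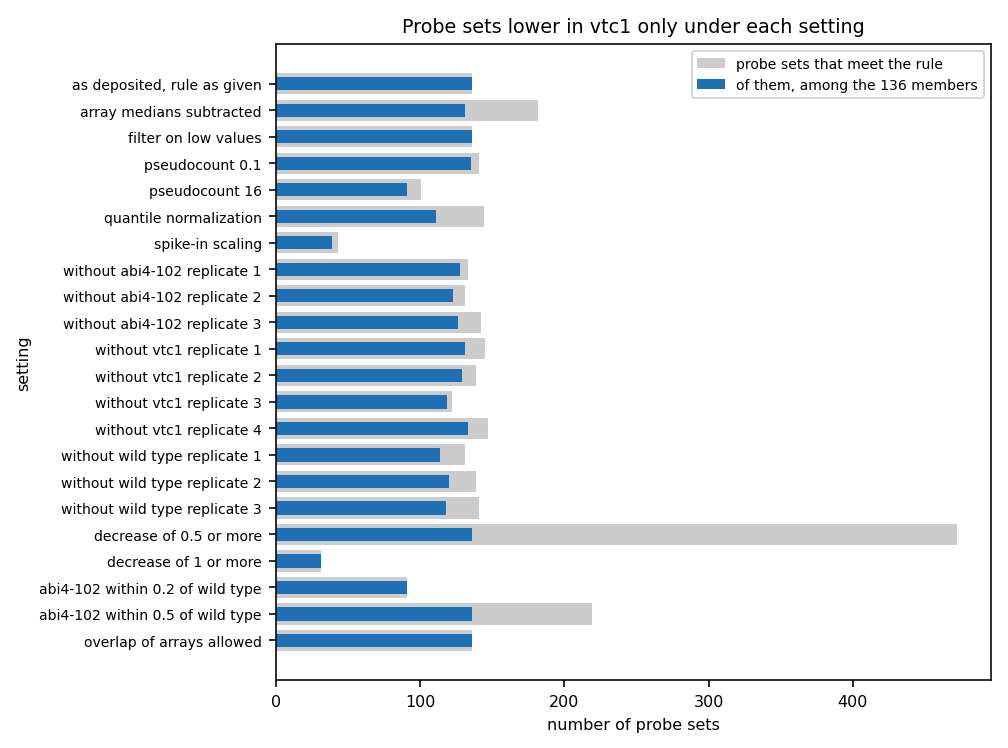
Number of probe sets that met the rule under each setting (grey bars) and how many of them were among the 136 members (blue bars). Leaving out 1 array at a time gave 122 to 147 probe sets, and scaling on the spike-in controls gave 43, of which 39 were members.

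Scaling on the spike-in controls raised the median of all probe sets in vtc1 against wild type from -0.03 to 0.21 and the members' median from -0.81 to -0.57. Under it all 136 members stayed below wild type in vtc1, and 39 of them, 20 with 1 gene, still met the rule. With each of the 10 arrays left out in turn, 80 members, 45 of them with 1 gene, met it every time. Under every scaling, pseudocount and filter tried, and with each array left out, 13 genes met it: AT2G43550, COR27, AT1G16850, AT3G28310, AT3G15450, AT3G54400, AT1G48100, MSRB5, AT1G32860, IAA29, AT1G68500, AT5G13140 and AT2G29290. AT2G15560, with the largest decrease, met it in 8 of the 10 leave-outs, since its abi4-102 mean lay at -0.25 and left the window of 0.3 in the other 2. After quantile normalization AT2G15560 did not meet the rule either.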

How the data were processed

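RNA of 10 rosette samples was hybridised to single-colour oligonucleotide arrays, 1 array per sample. The authors' deposited table holds a linear intensity per probe set for 22810 probe sets. Neither the summary of probes nor the scaling of arrays by the authors is given in the sources used here. From it, 64 control probe sets were removed, and the other 22746 were converted to log2(intensity + 1) with a pseudocount of 1 and no further scaling. On this scale the fold change of a dim probe set is understated.

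Genes were named from the platform annotation, updated through a RefSeq gene table of the TAIR10.1 assembly. Of the 22746 probe sets, 13513 carried 1 gene and 8730 were unnamed. A probe set that pairs with several genes named none of them. A gene counted as measured only where a probe set carried it alone. Genes not counted may still lie on unnamed or shared probe sets, the unnamed members included. Chromosomes and gene order came from the positions in the same gene table. No promoter or protein sequences were used here.

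All arrays entered 1 linear model with genotype as the only term (lmFit and eBayes of limma 3.58.1, run in R 4.3.3, 2-sided). A probe set was called at a Benjamini-Hochberg adjusted p under 0.05, taken over all 22746. The model was tested on simulated data. Tables and plots used Python 3.11.15, pandas 2.3.3 and matplotlib 3.10.9. A vtc1 level was taken as at background when no vtc1 array exceeded the brightest of the 27 Bacillus controls.

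The members, the gene lists and the groups of function were chosen with earlier results of these data known. The naming rule took every one-gene member at least once. It gave values per array to the 12 largest decreases, members on a list and members of a function shared by 3 or more. It also took the pair on each side of each threshold and up to 4 called genes per list. Loci beside members were named after their values were seen. Alternatives covered scaling, pseudocount, a filter on low values, the thresholds, a replicate block and leaving out each array. The number of arrays limits the precision.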

Additional observations from a re-analysis of the deposited data

Results flagged for a closer look

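For each of the 72 one-gene members, the 4 vtc1 arrays were checked for 1 array far from the others (Dixon's test at the 95% level). It marked 3 genes, where chance marks about 5% of groups. AT3G56130, the plastid protein with a biotin/lipoyl attachment domain, had 1 vtc1 array at 85.7, above the others at 74.0 to 75.1. AT1G70420, of the DUF1645 family, had 1 vtc1 array at 165.9, below the others at 188.5 to 192.4. AT5G47330, of the palmitoyl protein thioesterase family, had 1 vtc1 array at 27.3, below the others at 39.6 to 40.3.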

How the results depend on the processing

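The set numbered 136 as reported. It was 43 under spike-in scaling, 472 with a decrease of 0.5 or more, 31 with a decrease of 1 or more, and 219 with abi4-102 within 0.5 of wild type. With array medians subtracted it was 182 (131 of the 136), after quantile normalization 144 (111), with a pseudocount of 16 101 (91) and with abi4-102 within 0.2 91. Leaving out 1 array gave 122 to 147.

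For vtc1 versus wild type the calls were 8327 (4123 higher, 4204 lower). They were 9375 with array medians subtracted (36.4% higher) and 11491 under spike-in scaling (10274 higher, 1217 lower). For abi4-102 versus wild type they were 7928 (4283 higher, 3645 lower) and 5995 under spike-in scaling (62.1% higher). For vtc1 versus abi4-102 they were 8872 (4054 higher, 4818 lower) and 9921 (86.7% higher). Leaving out 1 array gave 7267 to 8617, 7060 to 7925 and 7800 to 8875. Of the 35 list genes that are no member, 20 were called, 18 under spike-in scaling (12 higher, 6 lower) and 17 to 21 with 1 array left out. Spike-in scaling turned AT5G52660 to 0.017, RCA to 0.073, PRK to 0.017 and AT5G18600 to 0.022. The cause was not tested.

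Replicate numbers are shared between genotypes, and deviations of same-numbered arrays correlated at -0.05 to 0.10. Arrays with different numbers were not compared in this way, so whether same-numbered arrays shared a batch was not tested. With the replicate block there were 7414 calls for vtc1 versus wild type, 7611 for abi4-102 versus wild type, 7971 for vtc1 versus abi4-102, and 17 among the list genes. A planned count of promoter motifs was not run, because no promoter sequence was used here.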
